A study of Macaca mulatta with 449 samples.

Results

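The 31 genes described here encode the semaphorins, the plexins and the neuropilins, a family of guidance cues and their receptors. They were taken by gene symbol, with no measured value used, and each of the 31 symbols matched 1 row among the 30807 genes of the count table. RNA depleted of ribosomal RNA had been sequenced from 51 sub-regions of the brain in each of 8 rhesus macaques (*Macaca mulatta*), with 1 sample of each sub-region from each animal. The animals carried no treatment in the labels and were 4 females and 4 males in 2 age groups, 4 mid-aged animals of 9.8 to 10 years and 4 young animals of 3.2 to 5 years. The sub-regions were placed in 16 region groups: the cerebral cortex (31 sub-regions, called cortex), the entorhinal and perirhinal cortex (PA), amygdala (AMY), hippocampus (HIP, with the dentate gyrus, CA1 and CA3), striatum (STR, with the nucleus accumbens, caudate nucleus and putamen), globus pallidus (GP), olfactory bulb (OB), thalamus (THA), hypothalamus (HTHA), substantia nigra (SN), ventral tegmental area (VTA), pons (PON), medulla oblongata (MO), cerebellum (CB, with the cerebellar cortex and vermis), corpus callosum (CC) and pituitary (PIT).

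Semaphorins are cues that share an extracellular sema domain. The class 3 members are secreted and mostly bind a neuropilin, which has only a short intracellular tail and passes the signal on through a plexin; the members of classes 4, 5 and 6 span the membrane, and *SEMA7A* is held at the cell surface by a lipid anchor. Plexins are the signalling receptors, with an intracellular domain that acts on small GTPases and so on the cytoskeleton. The family is best known for steering growing axons, and in the adult brain it also acts on synapses, blood vessels and glia.

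Levels are given in CPM, a gene's reads scaled to a library of 1000000 counted reads, with the lowest, median and highest of 8 animals. The counts of a group's sub-regions were summed within each animal. Because gene lengths were not used, levels are compared between regions and never between genes. The samples held between 7784678 and 31083490 counted reads (median 10698602). Region groups with a matched marker list of their own held the markers of their labels, except that the ventral tegmental area did so less clearly. Summed over the markers matched, the striatal list stood at 2175 to 2951 CPM in the striatum, the cerebellar list at 2188 to 2959 in the cerebellum and the thalamic list at 1020 to 1373 in the thalamus. The dopamine neuron list stood at 1477 to 3536 CPM in the substantia nigra and 29.8 to 540 (median 206) in the ventral tegmental area. It stood at 16.7 to 50.5 CPM in the hypothalamus and 67.1 to 150 in the olfactory bulb. The lowest ventral tegmental sample was thus not set apart from these groups by the list. The olfactory bulb list stood at 136 to 212 CPM in the bulb, the hypothalamic list at 216 to 1878 in the hypothalamus and the anterior pituitary list at 31214 to 350400 in the pituitary. No marker of the hindbrain list was matched, so the pons and the medulla were not checked in this way. The hippocampus, amygdala, entorhinal and perirhinal cortex and globus pallidus had no list of their own and were not checked either. In the globus pallidus the hypothalamic list reached 92.9 CPM (median 5.82) and the anterior pituitary list 272 CPM (median 11.0). The hypothalamus sample of Rhesus 6 stood apart, with 622 CPM summed over 4 of 5 listed genes of cortical excitatory neurons against 10.8 to 18.5 CPM in the other 7 animals. All 11 hypothalamic calls against the cortex held without it. Over the 15 groups together, calls lower than the cortex then rose from 91 to 94, and those higher stayed at 97. The medulla sample of Rhesus 6 stood apart too. Its neuron markers (8 of 8 matched) summed to 726 CPM against 8036 to 14621 in the other 7 animals and its inhibitory neuron markers (3 of 3) to 13.4 against 44.97 to 490.5. Its oligodendrocyte markers reached 93667 CPM against 30333 to 65195, its astrocyte markers 14464 against 4553 to 10290 and its meningeal fibroblast markers 298 against 46.8 to 79.3. Without this sample, an alternative added after the values were seen, 13 of 14 medullary calls against the cortex held, and the exception, *SEMA3C*, moved from log2 -1.02 to -0.997, just under the 2-fold limit.

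Of the 31 members, 29 passed the filter on low counts and were tested. *SEMA4C* and *SEMA6A* did not pass it: they collected 402 and 327 reads over all samples. Their highest median was 0.289 and 0.319 CPM, both in the corpus callosum, against 0 in the amygdala. Whether their gene models in the annotation limit these counts was not tested, and nothing is read from their levels. All 29 tested members differed among the 16 region groups (edgeR quasi-likelihood F test with the animal as block, highest adjusted p = 3.48e-22), where 99.7% of the 16829 genes tested did so too. The fitted range between a member's highest and lowest group had a median of 2.88 on the log2 scale, from 1.97 for *NRP2* to 7.08 for *PLXNB3*, and the median over all genes tested was 2.04. The corpus callosum was the group of highest level for 6 members (20.7%, and 16.1% of all genes), and the pituitary was the lowest for 10 (34.5%, and 19.6% of all genes). For 16 of the 29 members the highest group exceeded the next group at an adjusted p below 0.05 (edgeR). For the other 13 the order of the leading 2 groups was not resolved. Both groups were picked by the same fitted levels that the test then compared. The share of all genes passing was not counted, so the 16 is a description.

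**Figure D1:**
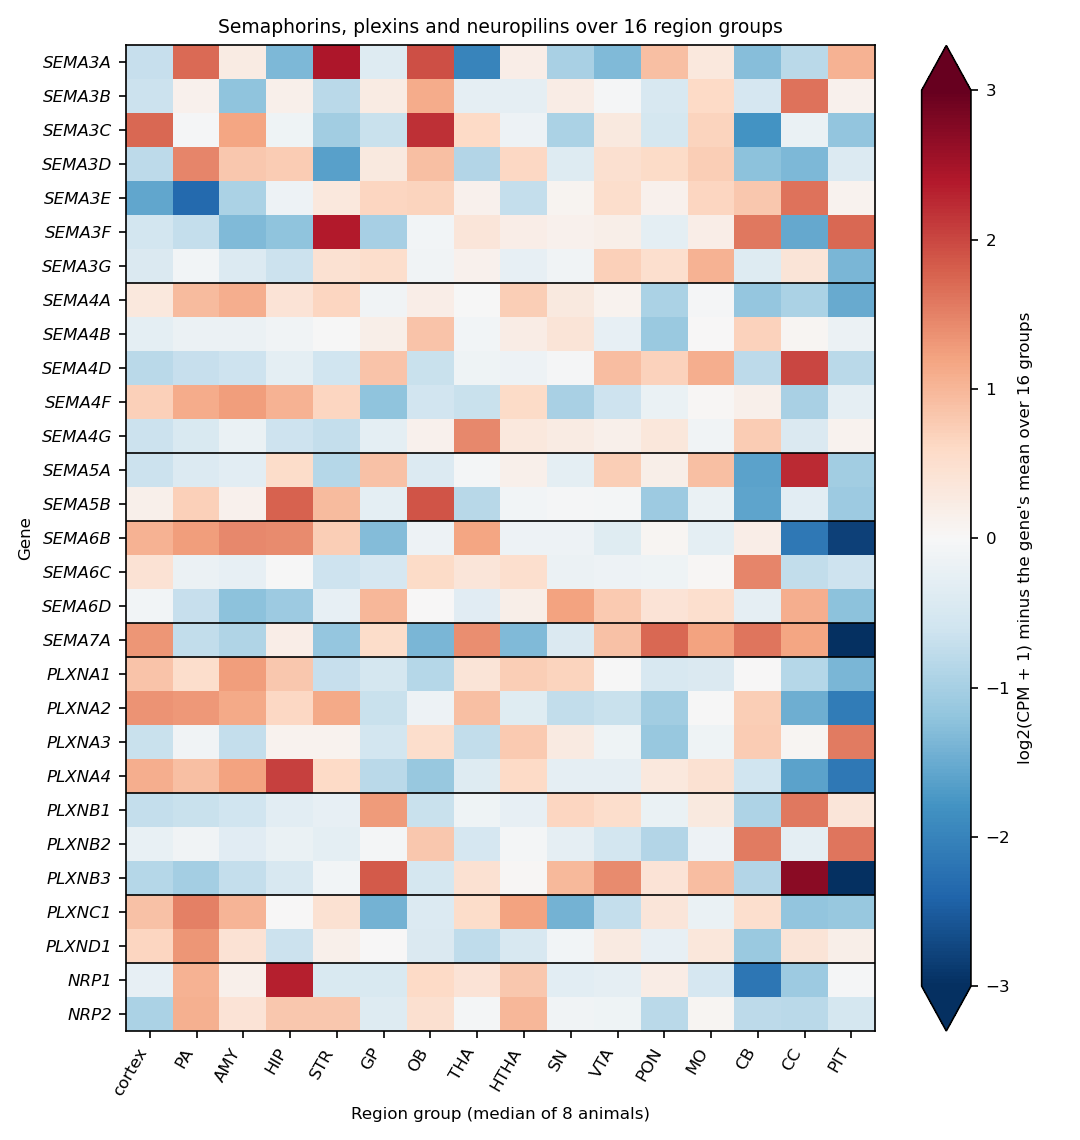
Each cell gives the log2(CPM + 1) of the median animal in 1 of 16 region groups, minus the gene's mean over the groups, for the 29 tested members ordered by class (black lines part the classes). *SEMA4D*, *SEMA5A*, *PLXNB1* and *PLXNB3* are reddest in the corpus callosum, *NRP1* in the hippocampus and *SEMA3A* and *SEMA3F* in the striatum, and the pituitary column is blue for *SEMA6B*, *SEMA7A*, *PLXNA2*, *PLXNA4* and *PLXNB3*.

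The strictest question was whether any member marked a single region group, with a fitted level more than 2-fold above every other group. The adjusted p below 0.05 also asked for was that of the joint test over all region groups, which 99.7% of all genes passed. The call thus rests on fitted levels, and whether a fold exceeded 2 was not tested. Of the 29 members 2 were called, *SEMA5A* in the corpus callosum and *NRP1* in the hippocampus. This is 6.9% of the members tested, against 11.5% of all genes tested. The adjusted p given for each below is for any difference between its highest group and the next. Among all genes 1.05% marked the corpus callosum and 0.38% the hippocampus. *SEMA5A*, a membrane semaphorin that binds plexin B3, stood at 56.4 CPM in the lowest, 77.6 in the median and 94.3 in the highest animal in the corpus callosum. The next group, the medulla, held 30.3 CPM at the median, and the corpus callosum was the highest group in 8 of 8 animals (2.38-fold over the medulla, log2 1.25 with SE 0.348, adjusted p = 0.00104, edgeR). Rhesus 6 held 67.3 CPM in the medulla where the other 7 animals held 19.5 to 40.2, and without that sample the difference was log2 1.32. The lowest median of *SEMA5A*, 4.46 CPM, was in the cerebellum, and animals differed widely in the other groups, with 0.481 to 22.97 CPM in the pituitary.

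*NRP1*, the neuropilin that carries semaphorin 3A and vascular endothelial growth factor, stood at 96.4 CPM in the lowest, 154 in the median and 220 in the highest animal in the hippocampus. Its next group was the entorhinal and perirhinal cortex with a median of 62.5 CPM, and the hippocampus was highest in 8 of 8 animals (2.26-fold, log2 1.18 with SE 0.147, adjusted p = 6.55e-11, edgeR). The cerebellum held the least, 4.02 to 8.46 CPM with a median of 5.83. Within the hippocampus *NRP1* did not separate the dentate gyrus, CA1 and CA3 (adjusted p = 0.826). In bulk tissue a change in the number of cells of a type and a change in RNA per cell cannot be told apart, here and in every comparison that follows.

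**Figure D2:**
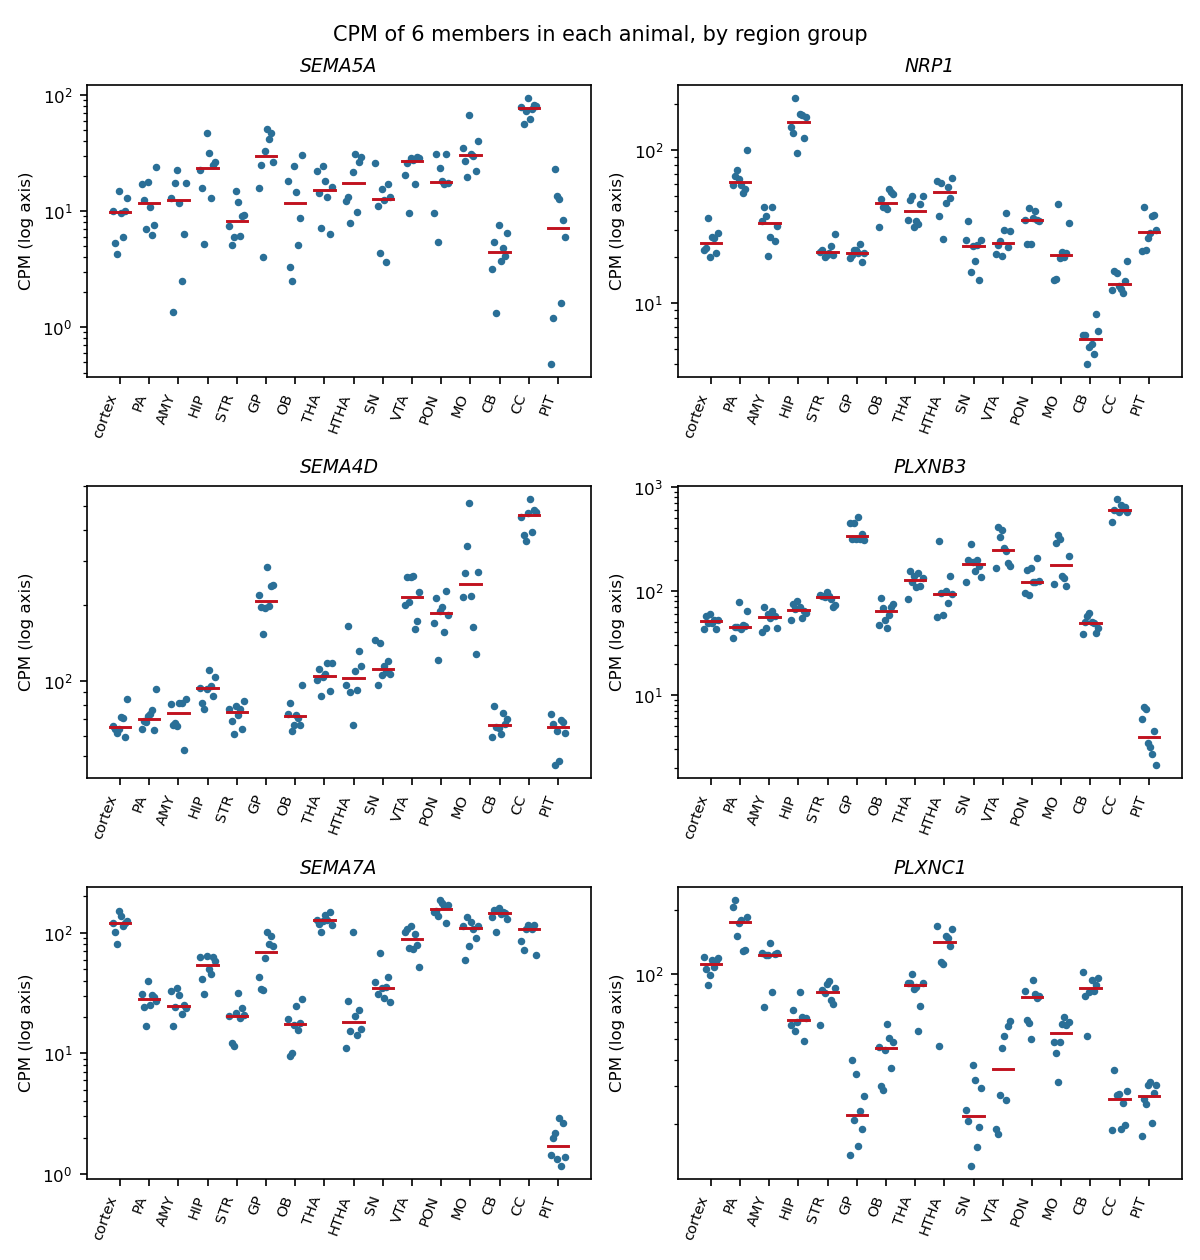
Points are the CPM of 6 members in each of 8 animals (log axis) by region group, and red bars are medians. *SEMA5A*, *SEMA4D* and *PLXNB3* peak in the corpus callosum and *NRP1* in the hippocampus; *SEMA7A* and *PLXNB3* drop to medians of 1.71 and 3.97 CPM in the pituitary; 1 hypothalamus point of *SEMA7A*, Rhesus 6, lies at 102 CPM above the other 7.

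To place all members on a common scale, each of the 15 other groups was set against the cortex, and a difference was called at an adjusted p below 0.05 and more than 2-fold. Of 435 pairs of a member and a group, 97 were called higher and 91 lower than the cortex, 43.2% together, while 24.5% of the pairs of all genes were called. The comparisons share the cortex samples, so their counts are set side by side and not compared. In the corpus callosum 8 members were higher and 10 lower, 62.1% together, where 44.2% of all genes were called (20.2% higher and 24% lower). In the pituitary 6 were higher and 12 lower, also 62.1%, against 44.7% of all genes (21.4% and 23.3%). The olfactory bulb had 9 higher and 8 lower, 58.6%, against 22.5% of all genes (12.5% and 9.94%). The hypothalamus had 8 higher and 3 lower, 37.9%, against 18.6% of all genes (11% and 7.62%). Fewest were called in the amygdala and in the entorhinal and perirhinal cortex. They were 4 higher and 2 lower in the amygdala (20.7%, and 9.54% of all genes, with 5.03% higher and 4.5% lower) and 4 higher and 3 lower in the latter (24.1%, and 8.92%, with 5.51% and 3.4%). In both directions together, the globus pallidus had 16 members called (against 34.8% of all genes), the medulla 14 (28.3%), the ventral tegmental area 14 (28.3%), the substantia nigra 13 (28%) and the pons 12 (24.9%). The cerebellum had 12 (25.7%), the hippocampus 11 (12.4%), the thalamus 10 (19.7%) and the striatum 9 (16.9%). The median log2 difference of the 29 members lay between -0.32 in the pituitary and 0.53 in the hypothalamus, and that of all genes between -0.03 and 0.03 over the 15 groups.

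The secreted class 3 semaphorins had their highest levels in 5 different region groups. *SEMA3A*, a repellent for many axons, was highest in the striatum, with 15.3, 23.6 and 29.9 CPM in the lowest, median and highest animal. The olfactory bulb followed with a median of 16.4 CPM, which the striatum did not exceed at the threshold (adjusted p = 0.0732, edgeR). The thalamus held almost none of it, 0.0774 to 0.981 CPM with a median of 0.160, and 0.795 CPM was the median of the hippocampus. *SEMA3A* was called higher than the cortex in 8 groups and lower in 3. *SEMA3F*, a ligand of neuropilin 2, shared the striatum as its highest group (33.6, 38.6 and 48.97 CPM), with the pituitary next at a median of 24.1 CPM (adjusted p = 0.0320). Its level was lowest in the corpus callosum, at 0.829, 1.62 and 2.58 CPM. The striatum stood 9.68-fold above the cortex (log2 3.27 with SE 0.231, adjusted p = 1.12e-24).

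*SEMA3C*, which binds both neuropilins, was the member that the other groups held least of relative to the cortex: 13 of 15 groups were called lower and none higher, the medulla only with the sample of Rhesus 6. It was highest in the olfactory bulb (13.3, 51.4 and 66.7 CPM) and next in the cortex (median 37.3 CPM), which the bulb did not exceed at the threshold (adjusted p = 0.149). The cerebellum held least, 0.769, 2.31 and 5.51 CPM. *SEMA3E*, which binds plexin D1 without a neuropilin, showed the opposite picture, with 14 of 15 groups called higher than the cortex and 1, the entorhinal and perirhinal cortex, lower. Its corpus callosum values were 36.02, 45.2 and 69.6 CPM against a cortical median of 4.12 CPM (11.8-fold, log2 3.56 with SE 0.273, adjusted p = 3.31e-23, edgeR). The entorhinal and perirhinal cortex held 0.972, 1.98 and 2.66 CPM.

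*SEMA3D* was highest in that same entorhinal and perirhinal cortex (14.8, 19.8 and 65.2 CPM) and lowest in the striatum (0.714, 1.46 and 2.88 CPM), and it was called higher than the cortex in 9 groups. *SEMA3B* was highest in the corpus callosum (48.1, 76.1 and 95.5 CPM) and lowest in the amygdala (6.86, 9.87 and 13.7 CPM). *SEMA3G*, known mainly from blood vessels, stayed low throughout, with 3.21, 6.88 and 21.9 CPM in the medulla (3.21 to 11.1 without Rhesus 6) and 0.146, 0.485 and 1.35 CPM in the pituitary. The medulla did not exceed the next group, the ventral tegmental area (adjusted p = 0.328). Summed over 5 of 6 listed genes, the endothelial markers stood at 92.8 to 229 CPM in the medulla, 121 to 221 in the ventral tegmental area and 46.1 to 101 in the pituitary. Over 51 sub-region medians, r of *SEMA3G* was 0.722 with the oligodendrocyte markers and 0.495 with the astrocyte markers. The part of these cells in the *SEMA3G* values was not tested.

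Of the membrane-bound semaphorins, *SEMA4D*, the ligand of plexin B1, was highest in the corpus callosum (360, 460 and 533 CPM), 1.67-fold above the medulla (log2 0.74 with SE 0.129, adjusted p = 3.62e-07). In the medulla Rhesus 6 held 512 CPM and the other 7 animals 128.3 to 346, and without that sample the fold was 1.92. *SEMA4D* was lowest in the pituitary (46.1, 65.02 and 73.9 CPM), with the cortex close to it at a median of 65.1 CPM. *SEMA4D* was called higher than the cortex in 5 groups, the corpus callosum, medulla, ventral tegmental area, globus pallidus and pons, and lower in none. *SEMA6D*, a ligand of plexin A1, was highest in the substantia nigra (231, 306 and 373 CPM) and next in the corpus callosum (median 284 CPM), which did not differ at the threshold (adjusted p = 0.661). The pituitary held least of it, 31.9, 55.8 and 78.9 CPM.

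*SEMA6B*, a ligand of plexin A4, ran the other way. Its amygdala values were 137, 188 and 207 CPM and its hippocampal median 183 CPM (adjusted p = 0.999 between them), whereas the corpus callosum held a median of 14.7 CPM and the pituitary 5.34, 8.95 and 14.5 CPM. *SEMA4F* was likewise highest in the amygdala (64.2, 88.3 and 108 CPM), lowest in the globus pallidus (12.5, 15.0 and 18.7 CPM) and called lower than the cortex in 6 groups. *SEMA4A*, which also acts on immune cells, was highest in the amygdala (58.1, 65.7 and 71.4 CPM) and lowest in the pituitary (4.98, 9.90 and 16.3 CPM). For neither did the amygdala exceed the entorhinal and perirhinal cortex at the threshold (adjusted p = 0.464 and 0.701, edgeR).

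Single structures stood out for 2 further semaphorins. *SEMA4G* was highest in the thalamus (66.8, 83.3 and 97.4 CPM, in 8 of 8 animals), 1.57-fold above the cerebellum (log2 0.65 with SE 0.108, adjusted p = 7.59e-08). Its lowest group was the striatum (14.9, 17.97 and 21.8 CPM). *SEMA6C* was highest in the cerebellum (35.4, 40.1 and 48.8 CPM, in 8 of 8 animals), 1.85-fold above the olfactory bulb (log2 0.89 with SE 0.148, adjusted p = 9.55e-08). Its lowest group was the corpus callosum (6.81, 7.98 and 9.49 CPM). *SEMA4B* and *SEMA5B* were both highest in the olfactory bulb, at 20.9, 27.6 and 39.02 CPM and at 19.5, 25.03 and 35.01 CPM, without exceeding the next group (adjusted p = 0.133 and 0.326). Their lowest groups were the pons for *SEMA4B* (3.04, 6.33 and 12.7 CPM) and the cerebellum for *SEMA5B* (0.887, 1.35 and 2.41 CPM).

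*SEMA7A*, whose receptors are plexin C1 and integrins, had the widest range of the semaphorins other than *SEMA3A*, 6.36 on the log2 scale. It was highest in the pons (121, 158 and 188 CPM) and next in the cerebellum (median 145 CPM, adjusted p = 0.474), with the thalamus and the cortex at medians of 127 and 120 CPM. In the pituitary it was nearly lost, at 1.17, 1.71 and 2.94 CPM (log2 -5.94 against the cortex with SE 0.276, adjusted p = 1.13e-39). It was called lower than the cortex in 8 groups and higher in none. The hypothalamus was among the 8, at log2 -2.14, and without the sample of Rhesus 6, which alone held 102 CPM where the others held 11.1 to 27.3, the difference was -2.70.

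The A-type plexins, which pair with neuropilins or bind class 6 semaphorins, were not alike. *PLXNA1* was highest in the amygdala (162, 188 and 219 CPM, 1.36-fold above the hippocampus, adjusted p = 0.00389), *PLXNA2* in the cortex (72.3, 86.0 and 117 CPM) and *PLXNA4* in the hippocampus (54.8, 117 and 193 CPM, 1.73-fold above the cortex, adjusted p = 0.00428). These 3 were lowest in the pituitary, where the medians were 29.7, 7.04 and 5.45 CPM. They were called lower than the cortex in 7, 9 and 8 groups and higher in none. *PLXNA3* had the reverse order, with 107, 155 and 266 CPM in the pituitary, 12.8, 23.2 and 30.3 CPM in the pons, and 4 groups called higher than the cortex and none lower.

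Of the B-type plexins, receptors of class 4 semaphorins and, for plexin B3, of *SEMA5A*, *PLXNB3* varied most. It stood at 464, 606 and 768 CPM in the corpus callosum, 1.59-fold above the globus pallidus (log2 0.67 with SE 0.176, adjusted p = 0.000757). Its cortical median was 50.95 CPM, and the pituitary held 2.13, 3.97 and 7.75 CPM. *PLXNB1* was also highest in the corpus callosum (549, 637 and 751 CPM, above the globus pallidus in 8 of 8 animals) but was lowest in the cerebellum (103, 111 and 127 CPM). *PLXNB2* was highest in the pituitary (148, 179 and 261 CPM) and the cerebellum (median 175 CPM), which did not differ at the threshold (adjusted p = 0.621), and lowest in the pons (22.6, 31.1 and 42.8 CPM).

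*PLXNC1*, the receptor of semaphorin 7A, was highest in the entorhinal and perirhinal cortex (129, 176 and 223 CPM), with the hypothalamus next (median 142 CPM, adjusted p = 0.0404), and lowest in the substantia nigra (12.8, 21.9 and 37.6 CPM). *PLXND1*, the receptor of semaphorin 3E, was highest in the entorhinal and perirhinal cortex as well (58.6, 70.1 and 77.8 CPM, 1.59-fold above the cortex, adjusted p = 0.000386), and lowest in the cerebellum (11.3, 12.2 and 16.5 CPM). They were called lower than the cortex in 7 and 4 groups and higher in none. *NRP2*, the co-receptor of semaphorin 3F, was the only member tested with its lowest level in the cortex (19.9, 23.8 and 29.95 CPM) and was called higher than the cortex in 6 groups. Its highest values were in the entorhinal and perirhinal cortex (81.7, 98.9 and 102 CPM) and the hypothalamus (median 95.1 CPM, adjusted p = 0.615).

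Markers of oligodendrocytes, the myelinating cells of the brain, were also highest in the corpus callosum. Summed over 7 of 10 listed genes, they stood at 93404 to 124480 CPM in the corpus callosum, 49764 to 106400 in the globus pallidus, 42698 to 66996 in the ventral tegmental area, 30333 to 93667 in the medulla, 2613 to 3429 in the cortex and 18.2 to 56.2 in the pituitary. No matched marker had a median near 0 in any group. Over the medians of 51 sub-regions, Pearson's r between log2(CPM + 1) of a member and of the list was highest for *PLXNB3*, at 0.929 (Spearman's rho 0.806). It followed at 0.722 for *SEMA3G* (rho 0.428), 0.690 for *SEMA4D* (0.234), 0.651 for *SEMA6D* (0.509) and 0.588 for *PLXNB1* (0.594). It was 0.542 for *SEMA3E* (0.672), 0.53 for *SEMA5A* (0.250), 0.373 for *SEMA7A* (0.255) and 0.343 for *SEMA3B* (0.223), so the order by rank was another. Of these, *SEMA7A* was not called higher in the corpus callosum than in the cortex. The lowest r were -0.584 for *SEMA4F* (-0.675) and -0.496 for *PLXNC1* (-0.684). These are descriptions, and each point shares its libraries between the 2 measures. Other glial lists were also higher in the corpus callosum than in the cortex. Astrocyte markers (6 of 7 matched) stood at 5367 to 7766 against 2747 to 3458 CPM, precursors of oligodendrocytes (4 of 5) at 383 to 574 against 177 to 229, and microglia (2 of 7) at 115 to 360 against 51.4 to 78.9. With the astrocyte list r was 0.714 for *PLXNB3* (rho 0.40), 0.367 for *SEMA5A* (0.584), 0.342 for *SEMA4D* (0.624) and 0.0863 for *PLXNB1* (0.434). Cortical excitatory neuron markers (4 of 5 matched) stood at 969 to 1171 CPM in the cortex, 22.9 to 112 in the corpus callosum and 1.95 to 8.74 in the pituitary, where *NEUROD6* had a median below 0.1 CPM. Their r over the 51 sub-regions was 0.651 for *PLXNA1*, 0.641 for *SEMA4F*, 0.639 for *PLXNA4*, 0.635 for *PLXNA2*, 0.629 for *SEMA3C* and 0.610 for *SEMA6B*. Meningeal fibroblast markers (5 of 5) stood at 205 to 442 CPM in the olfactory bulb and 277 to 522 in the pituitary, against 32.3 to 64.3 in the cortex. The part of cell composition in these members' values was not tested.

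Within the cortex, the question was whether members followed the lobes and the 31 sub-regions. The lobes were frontal (10 sub-regions), parietal (9), occipital (3), temporal (4) and limbic (5). The occipital lobe held the anterior superior, posterior superior and inferior occipital gyri, and the cuneus gyrus was placed in the parietal lobe. Of 29 members 26 differed among the 5 lobes (89.7%, and 61.5% of all genes) and 26 among the sub-regions (89.7%, and 75% of all genes) at an adjusted p below 0.05 (edgeR, animal as block). *SEMA3G*, *SEMA5A* and *PLXNA4* passed neither test. The median fitted range over the sub-regions was 1.12 on the log2 scale for the members and 0.66 for all genes tested, so these differences were smaller than those between region groups. For 20 members the spread between sub-region means was wider than that between animal means. This was not counted over all genes, so the 20 is not read as a trait of the members. Among the others was *SEMA5A*, with an SD of 0.618 between animals against 0.262 between sub-regions.

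Each lobe was set against the mean of the other 4, and a call needed an adjusted p below 0.05 with no limit on the fold. Of the 73 calls 4 were more than 2-fold, *SEMA3E* in the frontal and the occipital lobe and *SEMA7A* and *PLXNA1* in the occipital lobe, and the smallest was 0.0788 on the log2 scale. In the occipital lobe 7 members were called higher and 12 lower (24.1% and 41.4%, and 29.9% and 26.4% of all genes). Those higher were *SEMA3D*, *SEMA3E*, *SEMA3F*, *SEMA6C*, *SEMA6D*, *SEMA7A* and the receptor *PLXND1*. Semaphorins called lower were *SEMA3B*, *SEMA4A*, *SEMA4D*, *SEMA4F*, *SEMA5B* and *SEMA6B*. Receptors called lower were *PLXNA1*, *PLXNA2*, *PLXNA3*, *PLXNC1*, *NRP1* and *NRP2*. *SEMA3E* stood at 2.47, 9.06 and 14.3 CPM in the occipital and 1.3004, 2.50 and 2.67 CPM in the frontal lobe, with some overlap (occipital log2 1.27 with SE 0.169, adjusted p = 8e-08). In the occipital lobe *SEMA7A* stood at 172, 218 and 326 CPM in the lowest, median and highest animal and in the frontal lobe at 51.9, 78.1 and 114. The animals did not overlap between these lobes (occipital log2 1.19 with SE 0.067, adjusted p = 6.76e-17). The parietal lobe, at 89.2 to 186 CPM, did overlap with the occipital lobe. *SEMA6D* read 192, 205 and 220 CPM in the occipital and 90.9, 102 and 117 CPM in the frontal lobe (occipital log2 0.89 with SE 0.0381, adjusted p = 3.16e-20), again without overlap. *SEMA3F* stood at 5.65, 6.65 and 8.20 CPM in the occipital and 2.40, 3.94 and 4.36 CPM in the frontal lobe (occipital log2 0.94 with SE 0.0848, adjusted p = 1.55e-11), also without overlap.

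*PLXNA1* stood at 51.3, 61.5 and 79.7 CPM in the occipital lobe and at 141, 167 and 181 CPM in the frontal lobe (occipital log2 -1.17 with SE 0.0446, adjusted p = 1.59e-21, edgeR). *PLXNC1* ran the same way, at 49.8, 64.2 and 69.5 CPM in the occipital and 107, 130 and 144 CPM in the frontal lobe (log2 -0.82 with SE 0.0638, adjusted p = 3.78e-13). Neither receptor's animals overlapped between these lobes. The limbic lobe, at 63.9 to 131 CPM of *PLXNC1*, did overlap with the occipital lobe. The frontal lobe had 15 members higher and 6 lower (51.7% and 20.7%, and 23% and 21% of all genes), the temporal lobe 7 and 7 (24.1% each, and 13.7% and 12%), the limbic lobe 10 and 3 (34.5% and 10.3%, and 8.51% and 7.42%) and the parietal lobe 1 and 5 (3.45% and 17.2%, and 4.68% and 4.96%). The 5 lobe comparisons share samples and are not independent. Without the animal as block there were 38 calls in place of 73.

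The 5 members with the widest range over the sub-regions were *SEMA3E* (7.41-fold), *SEMA7A* (7.19-fold), *SEMA3D* (6.33-fold), *SEMA3A* (5.67-fold) and *NRP2* (3.97-fold), each at an adjusted p of 2.19e-07 or below (edgeR). These folds are between fitted levels, which put *SEMA3E* highest in the cuneus gyrus (2.69, 10.6 and 22.9 CPM) and *SEMA7A* in the posterior superior occipital gyrus (176, 215 and 302 CPM). By the median animal both were highest in the anterior superior occipital gyrus, with 3.90, 11.4 and 13.6 CPM for *SEMA3E* and 155, 222 and 307 CPM for *SEMA7A*. In the ventromedial prefrontal cortex they stood at 0.402, 1.54 and 2.53 CPM and at 29.3, 38.2 and 56.5 CPM, and *SEMA7A* was lower still in the temporal polar gyrus, at 20.5, 33.3 and 45.1 CPM. *SEMA3D* and *NRP2* were highest in that temporal polar gyrus, at 4.21, 9.34 and 14.6 CPM and at 44.1, 53.8 and 65.4 CPM, and *NRP2* was lowest, 10.2, 13.1 and 19.7 CPM in the anterior arcuate sulcus gyrus. *SEMA3D* had its lowest median in the inferior frontal gyrus, at 0.897, 1.43 and 3.40 CPM. *SEMA3A* was highest in the insula (2.45, 3.60 and 5.67 CPM) and lowest in the inferior precentral gyrus (0.389, 0.606 and 0.923 CPM).

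**Figure D3:**
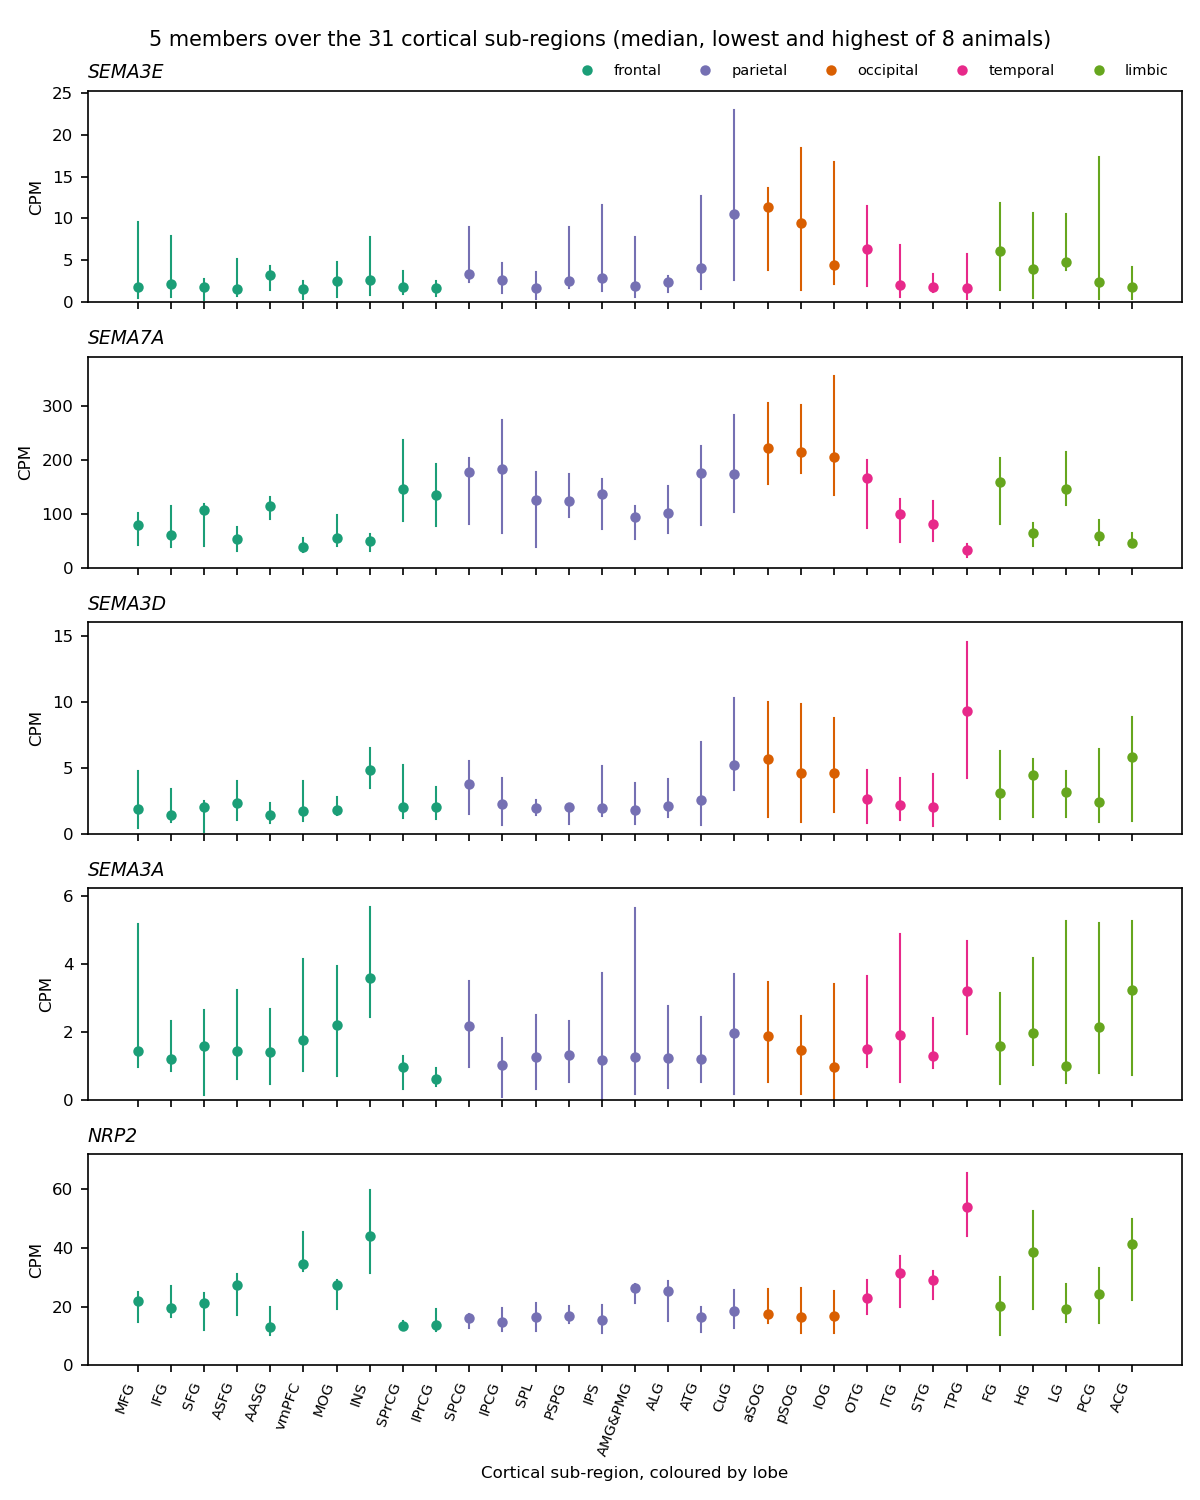
The median (point) and the lowest to highest value (line) of 8 animals are drawn in CPM for each of 31 cortical sub-regions, coloured by lobe, for the 5 members of widest range. *SEMA7A* runs from a median of 33.3 CPM in the temporal polar gyrus (TPG) to 222 in the anterior superior occipital gyrus (aSOG), and *NRP2* is highest in TPG at 53.8.

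Sub-regions were also compared within the striatum, the hippocampus and the cerebellum. Of the 29 members 24 differed among the nucleus accumbens, caudate nucleus and putamen (82.8%, and 57% of all genes), and 13 of these 24 were highest in the nucleus accumbens. The same split was not counted over all genes, so the 13 is not read as a trait of the members. By fitted level, 3 members were over 2-fold above both other sub-regions (10.3%, and 3.21% of all genes). *SEMA7A* stood at 21.8, 50.5 and 67.7 CPM in the putamen, 5.56, 9.34 and 16.6 in the caudate nucleus and 3.33, 7.21 and 10.3 in the nucleus accumbens. The putamen did not overlap with the others (putamen over caudate log2 2.18 with SE 0.169, adjusted p = 4.88e-08, edgeR, higher in 8 of 8 animals). *SEMA3A* peaked in the caudate nucleus at 31.4, 38.7 and 48.7 CPM, over 4.67, 13.1 and 46.1 in the nucleus accumbens and 4.48, 8.74 and 20.2 in the putamen. The caudate was above the accumbens in 7 of 8 animals (log2 1.24 with SE 0.304, adjusted p = 0.00449, edgeR). Rhesus 2 was the exception, with 46.1 CPM in the accumbens and 31.4 in the caudate.

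*SEMA3D* was low in the whole striatum and highest in the nucleus accumbens, at 0, 2.58 and 4.64 CPM, against medians of 0.852 in the caudate and 0.946 in the putamen (log2 1.11 over the putamen with SE 0.360, adjusted p = 0.0167, edgeR, higher in 7 of 8 animals). In the hippocampus 12 of 28 members differed among the dentate gyrus, CA1 and CA3 (42.9%, and 32.7% of all genes) but 0 passed the 2-fold limit, which 0.683% of all genes did. In the cerebellum 2 of 28 differed between cortex and vermis (7.14%, and 0.842% of all genes), and again 0 passed the 2-fold limit (0.225% of all genes). These were *SEMA7A*, with 122, 160 and 182 CPM in the cerebellar cortex and 78.8, 108 and 132 in the vermis (log2 0.52 with SE 0.0644, adjusted p = 0.0034), and *SEMA3F*, with 18.9, 25.5 and 45.5 against 10.3, 15.3 and 28.9 CPM (log2 0.76 with SE 0.143, adjusted p = 0.0339). Both were higher in the cerebellar cortex in 8 of 8 animals.

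**Figure D4:**
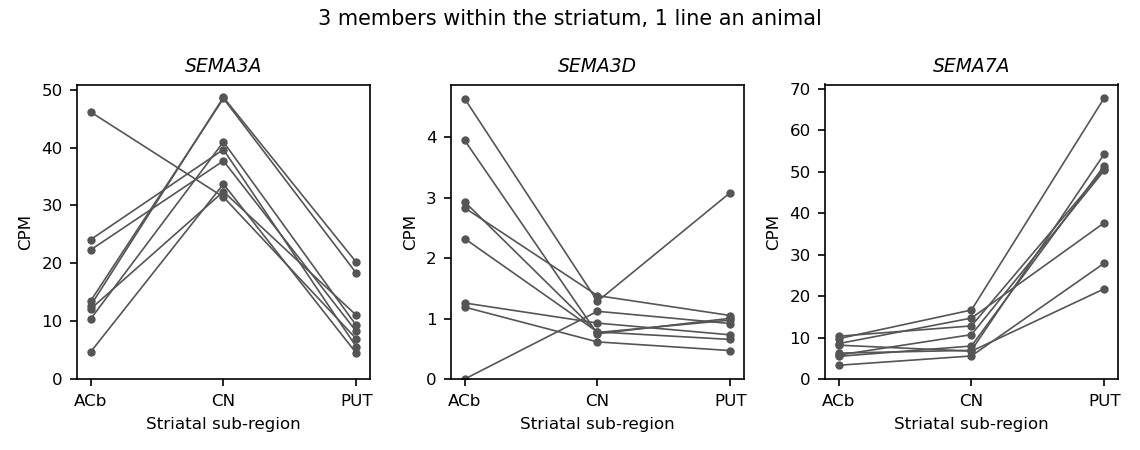
Lines join the CPM of 1 animal in the nucleus accumbens (ACb), caudate nucleus (CN) and putamen (PUT). *SEMA7A* rises to the putamen in all 8 animals, *SEMA3A* peaks in the caudate nucleus in all but Rhesus 2, and *SEMA3D* does not exceed 4.64 CPM.

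Ligands and receptors known to bind each other were then set side by side over the medians of the 51 sub-regions. Of 22 listed pairs 19 had both genes tested, and Pearson's r of log2(CPM + 1) ran from -0.555 to 0.847 with a median of 0.0649. It was above 0 for 12 pairs and below 0 for 7. The highest were *SEMA6B* with *PLXNA4* (r = 0.847, Spearman's rho 0.725), *SEMA4D* with *PLXNB1* (0.838 and 0.538) and *SEMA5A* with *PLXNB3* (0.646 and 0.366), and the lowest was *SEMA3E* with *PLXND1* (-0.555 and -0.481). No p is given, since sub-regions of the same animals share libraries and neighbouring sub-regions are alike. Genes not known to bind were not paired for comparison, so no r is read as particular to binding partners. In the 31 cortical sub-regions alone r was 0.461 for *SEMA6B* with *PLXNA4*, -0.0711 for *SEMA4D* with *PLXNB1* and -0.38 for *SEMA5A* with *PLXNB3*. These are r of medians, and in single animals the cortical r of *SEMA4D* with *PLXNB1* lay between 0.0276 and 0.602, above 0 in all 8. For *SEMA6B* with *PLXNA4* it lay between -0.156 and 0.524, and for *SEMA5A* with *PLXNB3* between -0.514 and 0.327, so neither sign held in all animals.

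In the cortex alone, an alternative added after the values were seen, the 2 pairs of largest r in size were inverse. Their ligands, *SEMA7A* and *SEMA6D*, were called higher in the occipital lobe and their receptors, *PLXNC1* and *PLXNA1*, lower. Whether a ligand and a receptor that do not bind are as inverse was not tested. *SEMA7A* and its receptor *PLXNC1* had r = -0.952 (rho -0.953) over 31 sub-regions, whereas outside the cortex r was -0.0705 over 20. Taken in each animal, the cortical r of this pair lay between -0.946 and -0.575. Over medians, r was -0.95 without the 3 occipital sub-regions, which do not include the cuneus gyrus. It was -0.946 without the 2 sub-regions farthest from the median of *SEMA7A*. In the temporal polar gyrus *PLXNC1* stood at 135, 171 and 191 CPM where *SEMA7A* was lowest, and in the posterior superior occipital gyrus at 48.1, 56.6 and 68.8 CPM where *SEMA7A* had 176, 215 and 302 CPM.

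*SEMA6D* and its receptor *PLXNA1* followed with r = -0.881 (rho -0.769), between -0.896 and -0.726 in single animals. For this pair r was -0.751 without the 3 occipital sub-regions. In the posterior superior occipital gyrus *SEMA6D* stood at 191, 226 and 241 CPM and *PLXNA1* at 42.2, 57.8 and 67.6 CPM, and in the anterior cingular gyrus they stood at 59.4, 96.8 and 120 CPM and at 166, 201 and 255 CPM. *SEMA5B* with *PLXNA3* had the highest positive r in the cortex, 0.727, between 0.221 and 0.668 in single animals.

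**Figure D5:**
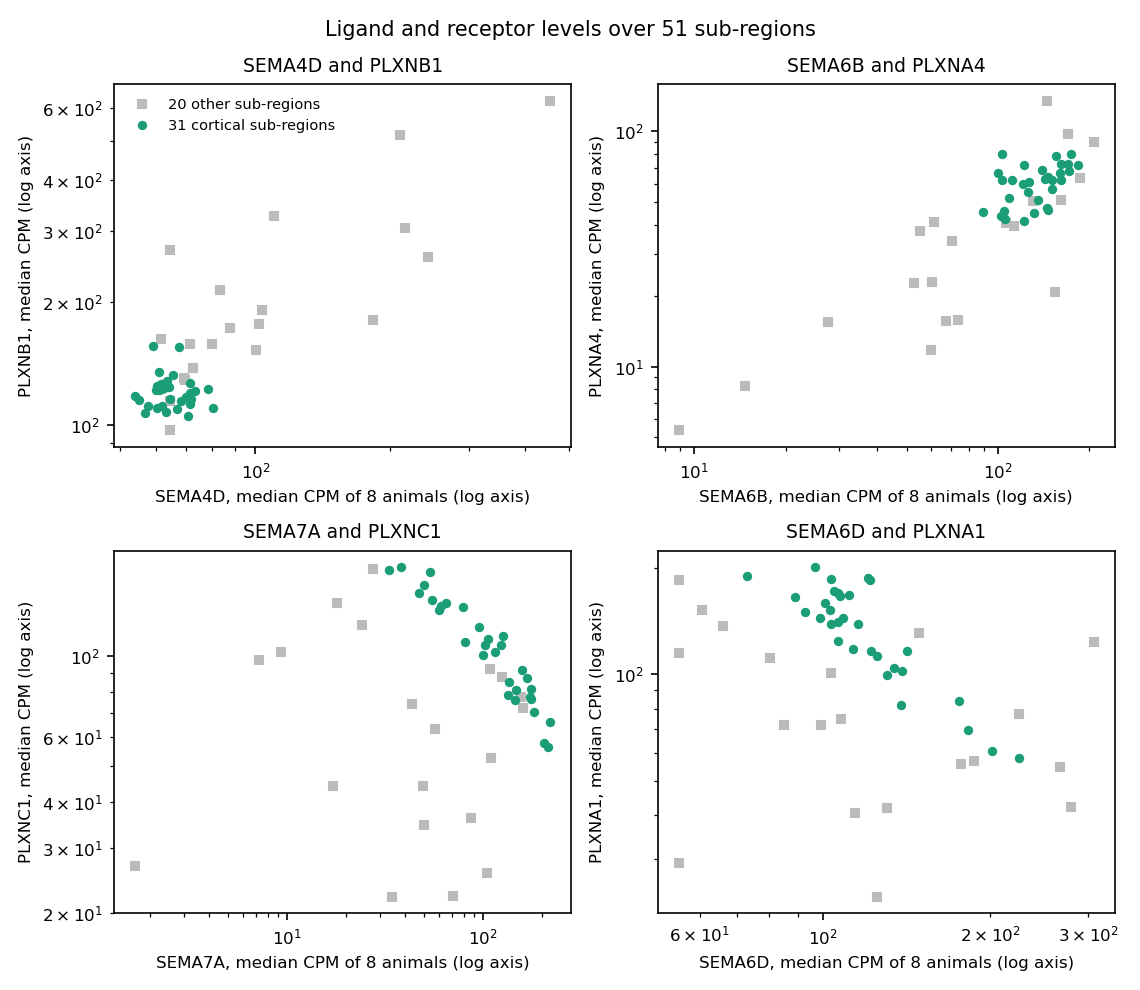
Each point is 1 sub-region at the median CPM of 8 animals (both axes log), with the 31 cortical sub-regions as green circles and the 20 others as grey squares. *SEMA4D* with *PLXNB1* and *SEMA6B* with *PLXNA4* rise together mainly through the grey squares, and *SEMA7A* with *PLXNC1* and *SEMA6D* with *PLXNA1* fall along the green circles (r = -0.952 and -0.881).

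The other genes of the pathway were read from 2 lists, 11 co-receptors and 28 cytosolic mediators, all of which were tested. Against the cortex, the co-receptors had between 0 and 4 genes called higher and between 1 and 4 lower in a group, and the mediators between 0 and 6 higher and between 1 and 11 lower. Over the 15 groups together, 12.3% of the pairs of all genes were called higher and 12.2% lower. The corpus callosum had the most mediators called lower, 11 of 28, and 6 higher (median log2 -0.32, and -0.02 over all genes), with the co-receptors at 4 higher and 4 lower of 11, where 20.2% of all genes were called higher and 24% lower. The largest differences there were those of *L1CAM*, the adhesion molecule that joins neuropilin 1 in semaphorin 3A receptors (log2 -4.56 with SE 0.222), *RND1*, a GTPase that binds plexins (-4.00 with SE 0.172), and the kinase *PAK1* (-3.91 with SE 0.222). In the pituitary they were *RHOD* (4.96 with SE 0.330), *PAK1* (-4.57 with SE 0.230) and *L1CAM* (-3.90 with SE 0.213). *MET*, the growth factor receptor that associates with B-type plexins, averaged 68.9 CPM in the cortex and 0.984 CPM in the pons (log2 -6.19 with SE 0.457, adjusted p = 1.04e-23, edgeR), and 1.09 CPM in the cerebellum (-6.03 with SE 0.424).

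Age and sex were compared in each region group, 4 animals against 4 with the other factor as covariate. At an adjusted p below 0.1 and more than 2-fold, 0 of 463 member and group pairs were called for age (0.0164% of the pairs of all genes) and 0 of 463 for sex (0.105%) by edgeR. At an unadjusted p below 0.05 there were 30 pairs for age (6.48%, and 5.73% of all) and 27 for sex (5.83%, and 3.54% of all). DESeq2 on the same design called 3 pairs for age and 4 for sex, and edgeR without Rhesus 7 called 4 and 5, so the count of 0 rests on the tool and on that animal. For age the smallest p was that of *SEMA5A* in the entorhinal and perirhinal cortex, with 17.7 ± 4.73 CPM (SD, n = 4) in mid-aged and 7.88 ± 2.08 in young animals and no overlap (log2 1.14 with SE 0.240, adjusted p = 0.205, edgeR); DESeq2 gave it an adjusted p of 0.00246. The next were *SEMA6D* in the pituitary, with 63.5 to 78.9 CPM in mid-aged and 31.9 to 48.04 in young animals (adjusted p = 0.175, edgeR), and *PLXNA2* in the entorhinal and perirhinal cortex, with 85.8 to 125 against 58.3 to 80.6 CPM (adjusted p = 0.241, edgeR).

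For sex the 3 smallest p were all in the pituitary. *SEMA3F* had 6.42 to 22.4 CPM in females and 25.8 to 73.3 in males, *SEMA4B* 8.97 to 12.03 against 13.9 to 17.4, and *SEMA3A* 8.23 to 24.5 against 3.29 to 8.81, each at an adjusted p of 0.218 (edgeR). The females and males did not overlap for *SEMA3F* and *SEMA4B*, and overlapped for *SEMA3A*. By DESeq2 *SEMA3F* (log2 -1.61 in females, adjusted p = 0.00122) and *SEMA3A* (1.48, adjusted p = 0.0391) were called. The pituitary samples also differed in their anterior pituitary markers, which summed to 31214 to 350400 CPM over the 8 animals, and the part of this in the pituitary values was not tested.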

How the data were processed

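The authors depleted total RNA of ribosomal RNA, made strand-marking libraries, checked reads with FastQC 0.11.4, trimmed those of low-quality samples with Trim Galore 0.4.4, aligned reads with HISAT2 2.0.5 to the rhesus genome and counted reads per gene with HTSeq 0.6.1; the counting options for strand and overlapping genes are not given in the sources used here. The deposited values were raw counts per gene for 408 samples (7784678 to 31083490 per sample). Midbrain RNA samples and chromatin accessibility samples were not analysed here.

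Counts of the sub-regions of a region group were summed per animal and tested with edgeR 4.0.16 in R 4.3.3 (TMM scaling, filterByExpr, quasi-likelihood test), with the animal as block and Benjamini-Hochberg adjustment over all genes tested. Age and sex were tested per region group with the other as covariate, at an adjusted p of 0.1. The script was tested on simulated data. Equal numbers mark the same animal in the labels: deviations of samples from 1 animal had a median correlation of 0.432 over 960 pairs of region groups, and of -0.058 over 6720 pairs of different animals.

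Correlations used log2(CPM + 1) of medians over 8 animals. DESeq2 1.42.0, other scaling, filters, folds and left-out animals were tried as alternatives. No measured value was used to pick the members, but they, the gene lists and the tests were chosen with earlier results of these data known. Every tested member is given in its highest and lowest region group, the 5 of widest range in the cortex by sub-region, those called within a structure there, the 3 smallest p for age and for sex, and at most 3 pathway genes a comparison. Intervals cover the spread between 8 animals, and where a group is dissected once per animal, dissection is part of that spread.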

Additional observations from a re-analysis of the deposited data

Results flagged for a closer look

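Each of the 31 members was looked at in its region group of highest median, and 3 of these sets of 8 animals had 1 animal far above the rest, where chance alone flags about 1 set in 20. *SEMA3D* in the entorhinal and perirhinal cortex stood at 65.2 CPM in Rhesus 3, with the next animal at 35.3 and the median at 19.8. *SEMA3F* in the striatum stood at 48.97 CPM in Rhesus 4, with the next animal at 40.7. *SEMA3G* in the medulla stood at 21.9 CPM in Rhesus 6, with the next animal at 11.1. That medulla sample also held 726 CPM of neuron markers against 8036 to 14621 in the other 7 animals, and 298 CPM of meningeal fibroblast markers against 46.8 to 79.3. It was the highest medulla sample for *SEMA3B* (112 CPM), *SEMA3E* (51.9), *SEMA4D* (512) and *SEMA5A* (67.3) and the lowest for *SEMA6B* (10.8) and *PLXNA2* (11.4). The part of its cell makeup in these values was not tested.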

How the results depend on the processing

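The animal as block changed few calls other than those among lobes: without it 29 members differed across region groups, 2 were called for a group, 190 pairs were called against the cortex (99 higher, 91 lower), 185 pathway pairs were called, 19 members differed among lobes with 38 lobe calls in place of 73, 25 differed among cortical sub-regions, and 0, 3 and 0 were called within the hippocampus, striatum and cerebellum. Leaving out each animal gave 29 to 29 members across groups, 2 to 2 called for a group, 185 to 194 pairs against the cortex (95 to 99 higher, 88 to 97 lower) and 180 to 187 pathway pairs. It gave 0 to 4 calls for age and 0 to 5 for sex, the highest without Rhesus 7. Those were, for age, *SEMA5A* in the entorhinal and perirhinal cortex and the thalamus, *SEMA3G* in the thalamus and *SEMA3F* in the pituitary, and for sex *SEMA3A*, *SEMA3D*, *SEMA3F*, *SEMA4A* and *SEMA5A*, all in the pituitary. DESeq2 gave 3 for age and 4 for sex. Asking for more than 4-fold left 0 members called for a group, 69 pairs against the cortex (34 higher, 35 lower) and 75 pathway pairs. DESeq2 kept 188 of the 188 cortex calls, and the study's detection rule as filter kept 178 and called 1 member within the cerebellum, *SEMA3A*. Without the hypothalamus sample of Rhesus 6, 187 were kept and 191 were called in all. Without the medulla sample of Rhesus 6 (added after the values were seen) 186 were kept, the others being *SEMA3C* in the medulla and *SEMA3B* in the substantia nigra. The cause of these changes was not tested.

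The sign of r over medians depended on the sub-regions used. Within the cortex many signs also differed between single animals, as for *SEMA6C* with *PLXNA1* (-0.466 to 0.145). Over 16 group medians r was -0.0915 for *SEMA3B* and *NRP2*, 0.153 for *SEMA3C* and *NRP2* and -0.0398 for *SEMA3G* and *NRP2*. In the cortex the median r was 0.179, and reversed pairs were *SEMA3A* with *NRP1* (-0.0671) and *PLXNA4* (0.616), *SEMA3C* with *NRP2* (0.308), *SEMA3E* with *PLXND1* (0.277), *SEMA3F* with *NRP2* (-0.258) and *PLXNA3* (-0.147), *SEMA4D* with *PLXNB1* (-0.0711, but above 0 in each of 8 animals) and *PLXNB2* (0.504), *SEMA5A* with *PLXNB3* (-0.38) and *PLXNA1* (0.446), *SEMA6C* with *PLXNA1* (-0.594) and *SEMA7A* with *PLXNC1* (-0.952). Outside the cortex they were *SEMA3A* with *NRP1* (-0.0576), *SEMA3B* with *NRP2* (-0.131), *SEMA3C* with *NRP2* (0.31), *SEMA3F* with *NRP2* (-0.109), *SEMA3G* with *NRP2* (-0.0868), *SEMA5A* with *PLXNA1* (0.128), *SEMA5B* with *PLXNA3* (-0.0684) and *SEMA7A* with *PLXNC1* (-0.0705). At 4 animals against 4, the age and sex comparisons limit what can be called.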
